A study of Mus musculus with 2 samples.

Results

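The Dlx homeobox genes and Dlx6os1, the long noncoding RNA of one of their loci, were taken by symbol from the gene and transcript tables of an embryonic mouse forebrain. They are 7 symbols, Dlx1, Dlx2, Dlx3, Dlx4, Dlx5, Dlx6 and Dlx6os1, of 43346 listed genes. Dlx6os1 stands for 2 gene identifiers, a long antisense gene and a 146-base RNA at its 5′ end that overlaps its exons by 104 bases, so the members cover 8 identifiers. The long gene is meant by Dlx6os1 here, and the short RNA is described apart. Forebrain of B6NCrl embryos of both sexes, 16.5 days old, was used, and total RNA above 200 nt was sequenced from 10 ng with ERCC spike-in RNAs added. The labels give 1 group of 2 biological replicates and name no treatment or mutant allele. Replicate 2 was a pool of forebrains from 41 embryos, and no embryo number is recorded for replicate 1. The tables held 31211128 expected counts (reads estimated per gene) in replicate 1 and 26957198 in replicate 2.

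Dlx proteins are transcription factors with a homeodomain that binds the core letters TAATTA or parts of them. In the embryonic forebrain Dlx1, Dlx2, Dlx5 and Dlx6 are known from progenitors and young neurons of the ganglionic eminences, the ventral source of GABA neurons of the striatum, cortex and olfactory bulb. Dlx3 and Dlx4 are known from skin, bone, placenta and the branchial arches. The genes lie in pairs with their 3′ ends facing, and Dlx6os1, also called Evf2, is transcribed across the Dlx5 and Dlx6 locus and is known to act on enhancers there.

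The pairing was read from the GENCODE M21 annotation (GRCm38, the same assembly as mm10). Dlx1 (ENSMUSG00000041911, chr2:71528113-71533981, plus strand) and Dlx2 (ENSMUSG00000023391, chr2:71543408-71546754, minus strand) lay 9426 bases apart. Dlx6 (ENSMUSG00000029754, chr6:6863334-6868568, plus strand) and Dlx5 (ENSMUSG00000029755, chr6:6877805-6882085, minus strand) lay 9236 bases apart. Dlx3 (ENSMUSG00000001510, chr11:95120119-95125296, plus strand) and Dlx4 (ENSMUSG00000020871, chr11:95140447-95146263, minus strand) lay 15150 bases apart. All 3 pairs converge. Dlx6os1 (ENSMUSG00000090063, chr6:6820189-6871592, minus strand) spans the whole of Dlx6 on the other strand, with no exon base in common with it.

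Upstream sequence is shown for Dlx2 and Dlx6os1, one rich in G and C and the other in A and T. The 250 bases before each start are printed from RefSeq's GRCm38.p6 promoter table, 5′ to 3′ on the strand of the gene. Capitals mark CACGTG and CCAAT (printed as ATTGG where it is on the other strand) for Dlx2, and TAATTA for Dlx6os1.
Dlx2, chr2:71546755-71547004, minus strand: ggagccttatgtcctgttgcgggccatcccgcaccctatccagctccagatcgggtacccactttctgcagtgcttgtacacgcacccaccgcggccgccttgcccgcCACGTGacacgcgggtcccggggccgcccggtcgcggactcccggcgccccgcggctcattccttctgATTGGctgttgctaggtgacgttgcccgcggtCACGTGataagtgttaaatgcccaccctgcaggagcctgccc
Dlx6os1, upper start, chr6:6869534-6869783, minus strand: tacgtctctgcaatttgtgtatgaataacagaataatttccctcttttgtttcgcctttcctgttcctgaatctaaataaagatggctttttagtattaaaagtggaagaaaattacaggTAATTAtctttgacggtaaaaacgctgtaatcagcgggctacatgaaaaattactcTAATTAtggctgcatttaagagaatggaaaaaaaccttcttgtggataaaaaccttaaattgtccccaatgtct
Dlx6os1, lower start, chr6:6861684-6861933, minus strand: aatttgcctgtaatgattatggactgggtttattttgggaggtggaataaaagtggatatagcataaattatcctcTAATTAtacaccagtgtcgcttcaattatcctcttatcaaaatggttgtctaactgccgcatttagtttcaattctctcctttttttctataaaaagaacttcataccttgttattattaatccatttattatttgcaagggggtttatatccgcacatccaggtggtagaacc

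Of the 7 symbols, 3 matched the promoter table, with 1 window for Dlx1, 1 for Dlx2 and 2 for Dlx6os1. No entry was matched for Dlx3, Dlx4, Dlx5 or Dlx6. Each window holds 250 bases before and 50 after the start, and letters were searched on both strands in 32851 windows of all genes. The Dlx2 window was 66.3% G or C and the Dlx1 window (upstream bases chr2:71529195-71529444, plus strand) was 69.3%, against a median of 52.7% over all windows. The upper and lower Dlx6os1 windows were 35.7% and 35.3% G or C, and only 4.30% and 3.98% of windows were lower. CpG pairs reached 0.898 of the number expected from base composition before Dlx2 and 0.767 before Dlx1, against a median of 0.384.

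CACGTG, the 6 letters known as an E-box of basic helix-loop-helix factors, occurred 2 times in the Dlx2 window. As many were found in 0.594% of all windows, and at least 1 in 7.15%. Each CACGTG is also a match of the looser motif CANNTG, which the window held 3 times, as in 17.6% of windows. Dlx2 also held CCAAT 1 time and GGGCGG 1 time, which 37.4% and 35.7% of windows equal or exceed. TAATTA, the letters that homeodomains are known to prefer, occurred 2 times at the upper Dlx6os1 start, as in 0.490% of windows, and 1 time at the lower start, as in 5.29%. The lower Dlx6os1 window also held TATAAA 2 times, as in 2.36% of windows. The Dlx1 and Dlx2 windows held neither TAATTA nor TATAAA. The shares are over windows of all base compositions, and none was taken among windows of like G and C content. TAATTA and TATAAA hold only A and T, in which the Dlx6os1 windows are rich. These are matches of letters, and no binding was measured.

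The RefSeq and GENCODE starts differ for some members. The Dlx2 start is the same base, 71546754, in both. The RefSeq start of Dlx1, 71529445, lies 1332 bases downstream of the start of Dlx1-201 and inside its first exon. The upper RefSeq start of Dlx6os1 lies 2059 bases downstream of Dlx6os1-201 as GENCODE M21 draws it, and Dlx6os1-202 starts 92 bases downstream of the lower one.

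Levels are given as TPM (transcript abundance corrected for length and library), with mean ± SD over n = 2 libraries. They cover all transcripts of a gene unless stated. Of the 6 protein-coding genes, 4 were found at clear levels, in the order Dlx1, Dlx5, Dlx2 and Dlx6, while Dlx3 and Dlx4 gave at most 9 reads in a library. Dlx6os1 lay beside Dlx5. In all, 5 of 7 members reached 1 TPM in both libraries, beside 34.1% of all genes and 13038 of 21474 protein-coding genes. A lower level in bulk tissue can come from fewer cells or from less RNA per cell, which cannot be told apart here.

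Dlx1 had 193 TPM in replicate 1 and 202 TPM in replicate 2 (197 ± 6.22), from 6803 and 5914 counts. Its level was above that of 96.4% of 21474 protein-coding genes. Dlx1 gave 63.6% of the summed TPM of the 6 Dlx genes in replicate 1 and 64.4% in replicate 2. Dlx2, the other gene of that pair and known to act partly in its place, had 37.6 TPM in replicate 1 and 42.2 TPM in replicate 2 (39.9 ± 3.29), from 1573 and 1509 counts. The 2 libraries gave Dlx1 and Dlx2 ranges that lay far apart.

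Dlx5, known also as a factor of bone and inner ear, had 62.2 TPM in replicate 1 and 62.7 TPM in replicate 2 (62.4 ± 0.354), from 1542 and 1307 counts. Its partner Dlx6 had 10.6 TPM in replicate 1 and 6.11 TPM in replicate 2 (8.33 ± 3.14), from 190 and 102 counts. Dlx6 was the lowest of the members above 1 TPM and the most unequal between the libraries. Its level was above that of 55.6% of protein-coding genes.

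Dlx6os1 had 57.2 TPM in replicate 1 and 62.0 TPM in replicate 2 (59.6 ± 3.39), from 4558 and 4137 counts. It ranked 35 of 6853 long noncoding genes by mean TPM and 4 of 2062 antisense genes. The antisense gene next above it, at rank 3, was Dlx1as, the antisense RNA of the other Dlx locus.

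Dlx3, known from epidermis and hair follicles, had 4 counts in replicate 1 and 9 in replicate 2, or 0.08 and 0.23 TPM. Dlx4 had 1 count in replicate 1 and 3 in replicate 2, or 0.02 and 0.09 TPM. A count of 0 would allow up to 3 counts, which equals 0.0637 and 0.0759 TPM for Dlx3 and 0.0732 and 0.0872 TPM for Dlx4 in replicates 1 and 2. Dlx4 in replicate 1 was under this limit, and the values of Dlx3 and Dlx4 overlapped between the libraries.

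**Figure D1:**
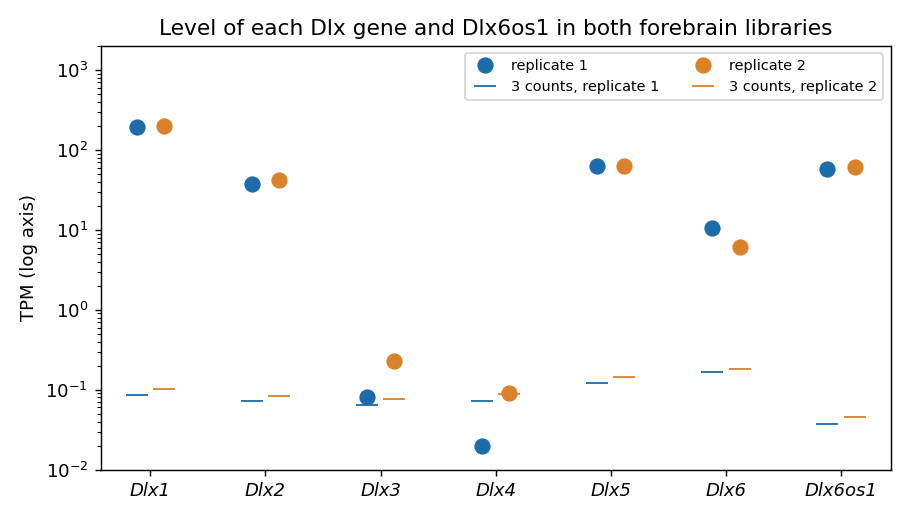
TPM (log axis) of each Dlx gene and of Dlx6os1 in replicate 1 (left point) and replicate 2 (right point). Dashes mark the TPM that 3 counts equal. Dlx1 stands at 193 and 202 TPM, while Dlx3 and Dlx4 lie close to the dashes.

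The order Dlx1, Dlx5, Dlx6os1, Dlx2, Dlx6, Dlx3, Dlx4 was the same in both libraries. Dlx5 and Dlx6os1, next to each other, differed by 2.81 TPM on the mean, less than the SD of 3.39 TPM of Dlx6os1. Dlx1 exceeded Dlx5 by 3.16-fold, Dlx6os1 exceeded Dlx2 by 1.49-fold and Dlx2 exceeded Dlx6 by 4.79-fold, and in each case the ranges over the libraries did not overlap.

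Ratios within a library compare the partners without any scaling between libraries. Dlx1 over Dlx2 was 2.36 in replicate 1 and 2.26 in replicate 2 on the log2 scale (2.31 ± 0.07). Dlx5 over Dlx6 was 2.56 in replicate 1 and 3.36 in replicate 2 (2.96 ± 0.57). By TPM over all transcripts, the gene named first was the higher one in both libraries. Over protein-coding transcripts Dlx1 over Dlx2 was 0.21 in replicate 1 and -0.08 in replicate 2. Dlx6os1 exceeded Dlx6, which it spans, by a log2 ratio of 2.44 in replicate 1 and 3.34 in replicate 2 (2.89 ± 0.64). The sum of Dlx1 and Dlx2 exceeded that of Dlx5 and Dlx6 by 1.66 in replicate 1 and 1.83 in replicate 2 (1.74 ± 0.11), on the log2 scale of TPM. That ratio was 0.17 ± 0.07 over protein-coding transcripts and turned to -0.53 ± 0.05 with the longest coding transcript of each gene.

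The transcript tables divide each gene among its listed transcripts. Most of the Dlx1 level was given to transcripts that GENCODE types as retained introns, which have no annotated protein. Dlx1-203 took 40.4% of Dlx1's TPM in replicate 1 and 41.5% in replicate 2, and Dlx1-206 took 38.8% and 39.8%. Dlx1-201, the transcript with the complete coding sequence, took 4.32% in replicate 1 and 2.88% in replicate 2, or 8.32 and 5.81 TPM. The remainder went to Dlx1-202 (6.92% and 8.06%) and Dlx1-205 (9.54% and 7.75%), both coding but with no annotated end, and Dlx1-204, a nonsense-mediated decay transcript, was listed at 0.

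The structures of these transcripts overlap widely. Dlx1-203 is 3385 bases long, and 2277 of them lie in exons of Dlx1-201. It holds all 765 bases of the Dlx1-201 coding sequence, of 255 codons, interrupted by the whole second intron of 1107 bases. Dlx1-201 is 4111 bases long and starts further upstream. Dlx1-206, of 803 bases, runs 177 bases into the first intron of Dlx1-201, which is 650 bases long. By counts, which favour long transcripts, Dlx1-203 held 70.7% of Dlx1 reads in replicate 1 and 73.2% in replicate 2.

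Retained-intron transcripts together held 79.2% of Dlx1's TPM in replicate 1 and 81.3% in replicate 2. Among 3970 protein-coding genes at 10 TPM or more that list such a transcript, the median share was 9.65% and 7.20%. A share as high as that of Dlx1 was found in 21 of them, or 0.529%, Dlx1 included. Dlx2 gave 7.82% in replicate 1 and 5.80% in replicate 2 to its retained-intron transcript, and 55.7% of those genes had as much or more. Dlx6 gave 40.3% and 36.2% to Dlx6-204, a retained-intron transcript of 383 bases, which 10.4% of genes equalled or exceeded. That share rests on 22.7 and 9.9 expected reads in replicates 1 and 2, only 11.9% and 9.71% of Dlx6 counts.

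The other members were divided more simply or less surely. Dlx2-201, with 332 codons, held 92.2% of Dlx2 in replicate 1 and 94.2% in replicate 2. Dlx5-201, with 289 codons, held 97.3% and 99.2% of Dlx5, and Dlx5-202, with a shorter reading frame of 146 codons, held the rest. For Dlx6 the leading transcript depended on the measure. By TPM it was Dlx6-204, ahead of Dlx6-202 with 28.6% and 35.9%, nearly level with it in replicate 2. By counts it was Dlx6-202, a transcript with the complete coding sequence of 297 codons, at 63.1% of reads in replicate 1 and 71.8% in replicate 2.

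Dlx6os1 was divided nearly evenly between Dlx6os1-201 (52.3% and 57.8% of TPM) and Dlx6os1-202 (47.7% and 42.2%). The deposited posterior SD of each was 108 reads in replicate 1 and 113 in replicate 2, of 2332 and 2345 reads for Dlx6os1-201. The transcript Dlx6os1-201 is 4248 bases long in the tables and 4608 in GENCODE M21, a later version.

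**Figure D2:**
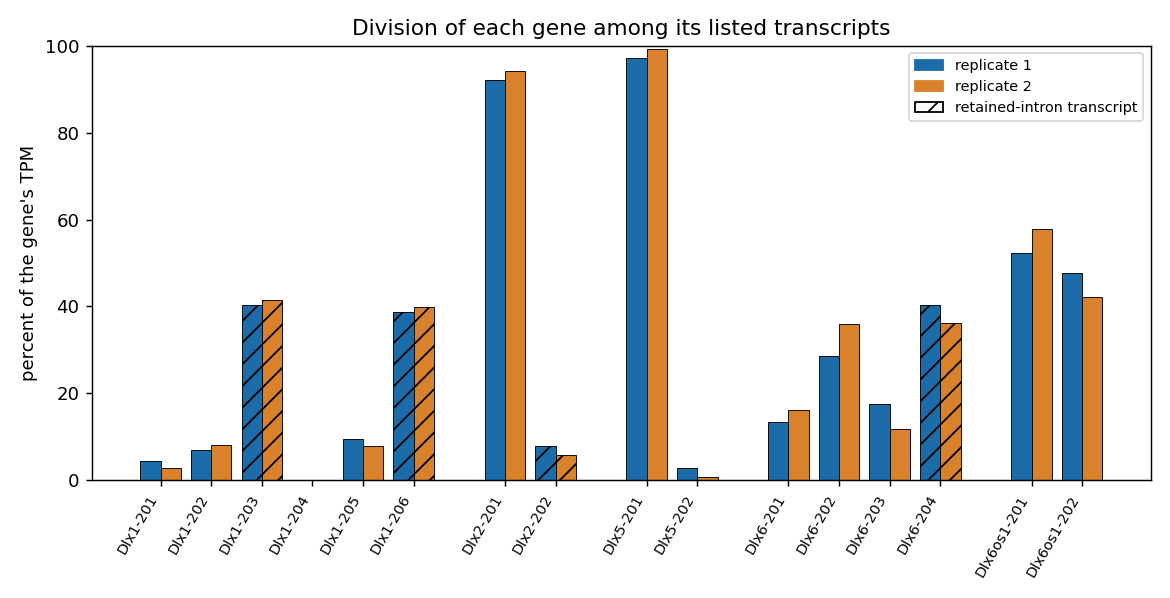
Percent of each gene's TPM that each listed transcript holds, in replicate 1 (left bar) and replicate 2 (right bar). Hatched bars are retained-intron transcripts, which hold 79.2% and 81.3% of Dlx1 and at most 7.82% of Dlx2.

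How the levels compare between members therefore depended on which transcripts were counted. Over protein-coding transcripts alone, Dlx1 had 40.1 TPM in replicate 1 and 37.7 in replicate 2, and Dlx2 had 34.7 and 39.8 TPM. The log2 ratio of Dlx1 over Dlx2 was then 0.07 ± 0.20, with Dlx1 higher in replicate 1 and lower in replicate 2. On the same measure Dlx5 had 62.2 and 62.7 TPM in replicates 1 and 2 and was the highest of the Dlx genes. Dlx6 had 6.30 TPM in replicate 1 and 3.90 TPM in replicate 2. Counts per kb of all annotated exons gave a Dlx1 over Dlx2 ratio of 1.12 ± 0.10 on the log2 scale. The single longest coding transcript of each gene turned it to -2.42 ± 0.51, with Dlx1 lower. These measures were added after the transcript values had been seen.

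**Figure D3:**
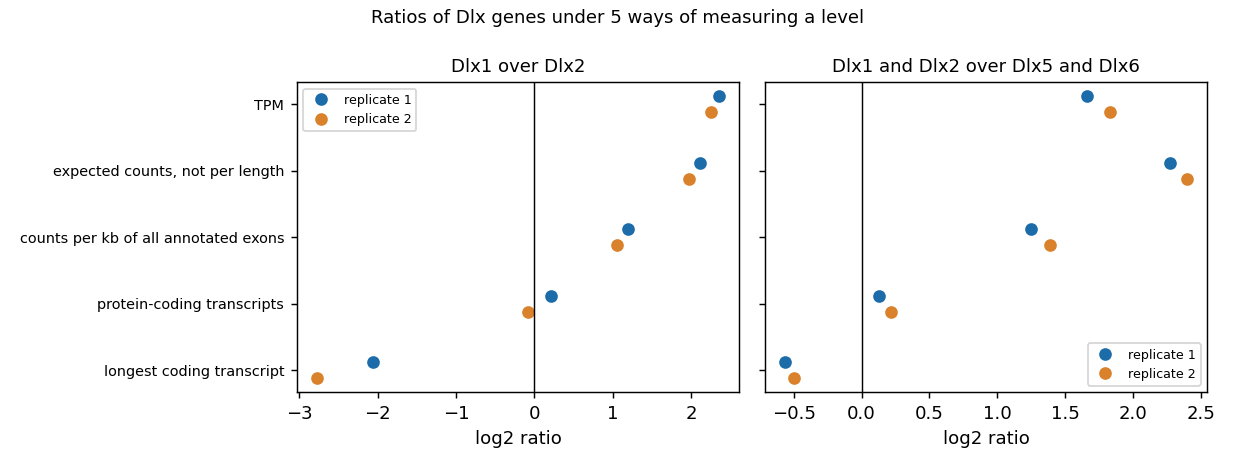
Log2 ratio of Dlx1 over Dlx2 (left) and of Dlx1 and Dlx2 over Dlx5 and Dlx6 (right) under 5 ways of measuring a level, in each library. Dlx1 over Dlx2 runs from 2.31 on the mean with TPM to -2.42 with the longest coding transcript.

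Genes on the opposite strand overlap exons of Dlx1, Dlx4, Dlx6 and Dlx6os1. Dlx1as (chr2:71516454-71537891, minus strand) spans the whole of Dlx1 on the other strand, introns included, and overlaps its exons by 335 bases. It had 68.2 TPM in replicate 1 and 89.0 TPM in replicate 2 (78.6 ± 14.8), from 699 and 768 counts, a log2 ratio of replicate 1 over replicate 2 of -0.37 (95% counting interval -0.52 to -0.22). The deposited posterior SD of the count was the same for Dlx1 and Dlx1as, 16.4 reads in replicate 1 and 16.8 in replicate 2. Their exons share 239 stretches of 100 bases, all in opposite orientation, or 4.18% of those of Dlx1. The equal SDs show that some reads were divided between these 2 genes of opposite strands, and the counts of both rest on that division. How strand entered the counting is not given in the labels, so the strand these reads came from cannot be told. The same holds for reads in Dlx1 introns, on which the retained-intron transcripts partly rest. No Dlx gene shared a 100-base stretch with another Dlx gene.

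Dlx6 has a second antisense partner, Dlx6os2 (chr6:6863797-6865150, minus strand), whose exon overlaps Dlx6 exons by 104 bases. The deposited posterior SD of the gene count was 0 reads for Dlx6 and Dlx6os2, as for Dlx2 and Dlx5. Dlx6os2 had 30 counts in replicate 1 and 23 in replicate 2, or 1.27 and 1.16 TPM. Dlx4os, antisense to Dlx4, had 0 counts in replicate 1 and 1 in replicate 2. Gm27699 and Gm27905, RNAs of 180 and 207 bases on the plus strand, lie within Dlx6os1 exons and had 0 counts in both libraries. They share 81 and 108 stretches of 100 bases with Dlx6os1 in opposite orientation. The posterior SD of the Dlx6os1 count was 3.58 reads in replicate 1 and 3.80 in replicate 2. The 146-base RNA that also carries the name Dlx6os1 (chr6:6871488-6871633, minus strand) had 17 counts in replicate 1 and 14 in replicate 2. Its 19.3 and 18.9 TPM rest on an effective length of 47 bases.

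The genes next to the pairs were read as a frame. Metap1d, a mitochondrial methionine aminopeptidase gene beside Dlx1, had 35.1 and 39.4 TPM in replicates 1 and 2, and the integrin gene Itga6 beyond Dlx2 had 18.9 and 20.2 TPM. Sem1, a proteasome subunit gene on the Dlx6 side, had 135 TPM in replicate 1 and 150 TPM in replicate 2. Sdhaf3, an assembly factor gene beside Dlx5, had 5.66 and 5.83 TPM. Around Dlx3 and Dlx4, Itga3 had 7.07 and 5.21 TPM in replicates 1 and 2, and the tachykinin gene Tac4 had 0.19 and 0.17 TPM.

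With all transcripts of a gene counted, Dlx1 stood first among the homeobox genes compared. Over protein-coding transcripts alone Dlx1 had 40.1 and 37.7 TPM in replicates 1 and 2, below Dlx5. The other families were not ordered by that measure. Mean TPM over all transcripts ordered 111 homeobox genes, the 6 Dlx genes and 105 of other families. In this order Dlx1 ranked 1 in both libraries. Next came Meis2, a partner of Dlx factors in the ganglionic eminence, at 125 ± 5.26 TPM, then Cux1 at 116 ± 3.32 TPM and Zeb2 at 113 ± 25.0 TPM. Dlx5 ranked 9, between Lhx2 (67.1 ± 12.7 TPM) and Pbx3 (49.8 ± 13.0 TPM), within the spread of both. Dlx2 ranked 15, between Pou3f3 (41.1 ± 9.80 TPM) and Pbx4 (39.9 ± 0.990 TPM), and differed from neither beyond the spread.

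Dlx6 ranked 39, between Pou3f4 (8.45 ± 0.332 TPM) and Otx1 (7.92 ± 0.00707 TPM), within its own spread of both. Dlx3 ranked 92, between Pitx1 and Pax3, and Dlx4 ranked 97, between Pax7 and Tlx3. Pitx1, Pax3 and Pax7 each had at most 1 count in replicate 1. Of the 105 homeobox genes of other families, 54 reached 1 TPM in both libraries, and the median of the 105 was 1.35 TPM.

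**Figure D4:**
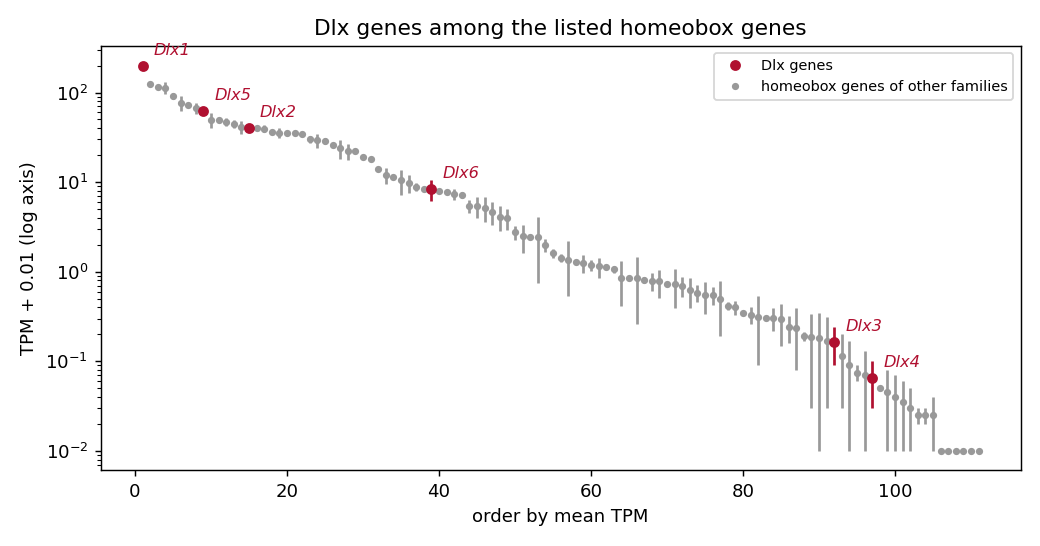
Mean TPM over all transcripts (log axis, 0.01 added) of 111 homeobox genes in descending order, with bars over the range of both libraries. Dlx genes are named, with Dlx1 at 197 TPM first and Dlx4 at rank 97.

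The libraries were then compared member by member. Log2 ratios are replicate 1 over replicate 2, from counts scaled by TMM, with a 95% exact counting interval that covers counting error only. A call needed a mean of 50 counts or more, a difference of 2-fold or more and an interval that left out equality. Of the 5 members with enough counts 0 were called, beside 1.38% of 13927 genes (1.01% higher in replicate 1 and 0.366% lower). No p-value was computed, since 2 libraries of 1 group allow none.

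Dlx1 had a log2 ratio of -0.03 (-0.08 to 0.02) and Dlx5 one of 0.00 (-0.10 to 0.11), so both were equal within counting error. Dlx6os1 had -0.10 (-0.16 to -0.03) and Dlx2 -0.17 (-0.28 to -0.07), both slightly lower in replicate 1. Dlx6 had 0.66 (0.31 to 1.02), or 1.58-fold higher in replicate 1. Dlx3 (-3.56 to 0.44) and Dlx4 (-7.53 to 1.82) had too few counts to be placed.

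The Dlx6 ratio was large among all genes but less so among genes of its depth. Of all 13927 genes, 5.01% were as far from 0, and of 1318 genes with a mean of 100 to 200 counts, 13.5%. At 1.5-fold, Dlx6 alone of the members was called, beside 6.58% of genes (4.68% higher in replicate 1 and 1.9% lower). Dlx5 and Dlx6os1 of the same locus had ratios of 0.00 and -0.10. Spike-in scaling lowered the log2 ratios of the 5 members with enough counts by 0.55, which turned the Dlx5 ratio to -0.55 and left that of Dlx6 at 0.11.

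**Figure D5:**
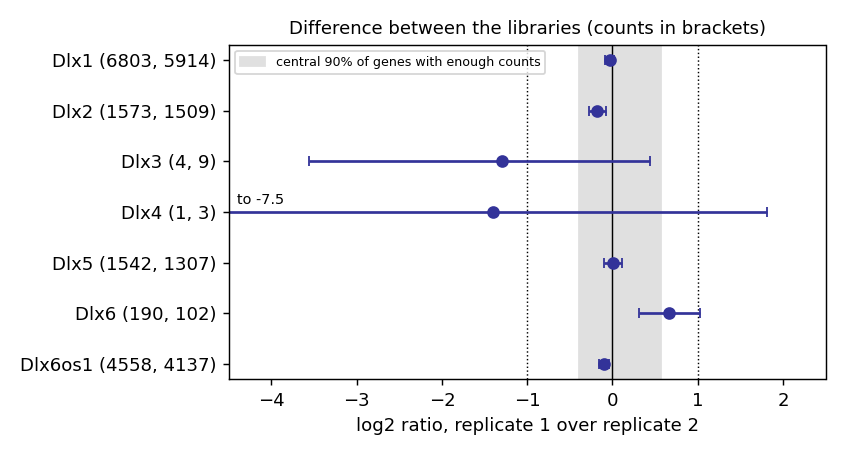
Log2 ratio of replicate 1 over replicate 2 for each member, with 95% counting intervals and counts of replicates 1 and 2 in brackets. The grey band holds the central 90% of genes with enough counts, and dotted lines mark 2-fold. Dlx6 at 0.66 lies outside the band, and the intervals of Dlx3 and Dlx4 span most of the axis.

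Genes that act before, beside or after Dlx factors were counted by list, with log2 ratios again replicate 1 over replicate 2. Of the 7 upstream regulators of the ventral forebrain 6 reached 1 TPM in both libraries. Gli3, a zinc finger factor of hedgehog signalling, had 8.90 and 11.2 TPM in replicates 1 and 2. Shh, the ventral signal, was lowest at 0.80 ± 0.37 TPM. Dlx1, Dlx5 and Dlx2 each lay above Gli3 and Shh in both libraries. Of 5 regulators with enough counts 0 were called, with a median ratio of -0.21.

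The 7 members had a median of 39.9 TPM, against 13.9 TPM for the ganglionic eminence factors, of which 16 of 17 reached 1 TPM. Zeb2 (113 ± 25.0 TPM), Nr2f2 (57.1 ± 0.191 TPM) and Isl1 (46.7 ± 6.46 TPM) led them, and Vax1 was lowest at 0.80 ± 0.10 TPM. Of 16 with enough counts 0 were called and 9 were higher in replicate 1, with a median ratio of 0.07.

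All 9 genes of GABA synthesis and interneuron migration reached 1 TPM, with a median of 31.4 TPM. The guidance receptor Nrp1 had 79.4 ± 13.5 TPM, and Gad1, a GABA-making enzyme and known Dlx target, had 79.9 and 64.4 TPM in replicates 1 and 2. Slc32a1, which loads GABA into vesicles, was lowest at 5.68 ± 1.02 TPM. Of the 9 genes 5 were higher in replicate 1 and 0 were called, with a median ratio of 0.31.

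All 11 partners of Dlx proteins or of the Dlx6os1 RNA lay above 10 TPM, and their median was 73.1 TPM. Ndn (852 ± 236 TPM) and Maged1 (830 ± 1.32 TPM), MAGE-family proteins known to bind Dlx5, led, followed by Smarca4 (mean 137 TPM), a chromatin remodeller known to bind Evf2 RNA. The median ratio was 0.02, 6 of 11 were higher in replicate 1 and 0 were called.

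The 11 dorsal telencephalon factors, which are known from the cortex, all reached 1 TPM, with a median of 49.2 TPM. Neurod6 (439 ± 70.5 TPM), Neurod2 (102 ± 14.7 TPM) and Fezf2 (69.9 ± 5.42 TPM) led, and Neurog1 was lowest at 2.10 ± 0.205 TPM. All 11 were lower in replicate 1, with a median ratio of -0.28 and 0 called, beside a median of -0.01 over all tested genes. Spike-in scaling shifts the log2 ratio of every gene by -0.55, up to the prior count. That common shift made the medians of the eminence, GABA and partner lists negative too, at -0.48, -0.24 and -0.53. Among the homeobox genes, Otp (2.17 and 0.52 TPM in replicates 1 and 2) was called, with a ratio of 2.05.

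Markers of the tissue and of other Dlx-expressing tissues were read beside the members. All 5 forebrain markers exceeded 10 TPM, led by Neurod6, and 0 of 6 midbrain and hindbrain markers reached 1 TPM. Those summed to 14 counts in replicate 1 and 41 in replicate 2, Pax5 highest, with Hoxa2 and Hoxb4 at 0 in both.

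Bone and cartilage markers summed to 22.5 and 60.9 TPM in replicates 1 and 2, and 2 of 8 reached 1 TPM in both. Col2a1 (14.1 TPM in replicate 1 and 29.9 TPM in replicate 2), Ibsp (0.65 and 11.8 TPM) and Cnmd (0.52 and 7.11 TPM) were called, all lower in replicate 1. Mesenchyme markers summed to 14.6 and 23.8 TPM, with 3 of 6 at 1 TPM and Msx1 highest. Epidermis markers summed to 16.0 and 17.1 TPM, with 3 of 6 at 1 TPM and Krt10 highest, and olfactory epithelium markers to 2.61 and 1.68 TPM, with 0 of 5 and Gng8 highest. None of these 4 lists had a gene at 0 in both libraries. Dlx3 and Dlx4 counts were likewise lower in replicate 1, within counting error, while Dlx5 was equal and Dlx6 higher. The part of these tissues in the Dlx values was not tested.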

How the data were processed

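Total RNA of 2 forebrain replicates was analysed, with 1 gene and 1 transcript table per library. Per the notes deposited with the tables, the assembly was mm10 and the annotation M4. For the aligner and quantifier, programs and versions are not given in the labels or files read here, and the column names are those RSEM writes. The authors deposited expected counts per gene and transcript without normalization, with posterior means and posterior SDs, per the file headers. The deposited TPM values are per effective length and scaled over all listed features, spike-ins (5.93% and 4.10% of TPM) included. The deposited FPKM values are per effective length and library. The percent of its gene that each transcript holds was also deposited by the authors, per the file headers.

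Features other than Ensembl genes held 2.40% and 1.62% of counts in replicates 1 and 2. Symbols and coordinates came from GENCODE M21 by identifier without version, for 42462 genes. Nothing in the labels says how strand was used in counting. Effective lengths were the length minus 99 bases. Counts were rounded for TMM scaling with edgeR 4.0.16 and, as an alternative, for DESeq2 1.42.0 size factors, in R 4.3.3. Ratios used a prior count of 0.5 and 95% exact Clopper-Pearson intervals. Other steps used Python 3.11.15, numpy 2.4.6, pandas 2.3.3, scipy 1.17.1 and matplotlib 3.10.9. PCR reads are not independent molecules, so intervals and floors cover counting error only. The libraries count as 2 biological replicates because the labels say so. Their counts over 13927 genes differed by more than sampling (chi-square over degrees of freedom 18.5). That value cannot tell biological replicates from separate preparations of 1 RNA. The calls were tested on simulated data with counting error only, so that test does not cover the larger spread between these libraries.

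The members and gene lists were chosen with earlier results of these data known. The text names the members, their opposite-strand and next genes, the 3 highest and the lowest gene of each list, called genes, homeobox genes next to a member in level, and the highest marker of each list. Some genes that this rule takes are not reported here. Hoxa2 and Hoxb4 were named after their values were seen, and 6 homeobox genes listed at 0 share the lowest place and are not named. Alternatives covered the TPM minimum, FPKM, posterior means, the pseudocount, the scaling, the count minimum, the fold and each replicate left out.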

Additional observations from a re-analysis of the deposited data

How the results depend on the processing

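Of 150 alternatives, 109 left a value within its spread or on its side, 34 moved it and 7 reversed it. The Dlx5 ratio between the libraries, near 0, is counted among the moved ones, at -0.55 with spike-in scaling, and among the unmoved ones, at -0.00055 with DESeq2 size factors. The ratio of Dlx1 over Dlx2 on the log2 scale was 2.04 by counts without length, 1.12 by counts per kb, 0.066 by protein-coding transcripts or without retained-intron transcripts, and -2.42 by the longest coding transcript. That of Dlx1 and Dlx2 over Dlx5 and Dlx6 was 2.34, 1.32, 0.17 (also without retained-intron transcripts) and -0.53 under the same measures. Dlx5 over Dlx6 was 3.65 by protein-coding transcripts, also without retained-intron transcripts, and 4.58 by the longest coding transcript. Dlx6os1 over Dlx6 was 4.96 by counts, 3.84 by counts per kb and 3.59 without retained-intron transcripts. All but the measure by counts without length were chosen after seeing the data. These measures count different transcripts or lengths by construction.

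At 1.5-fold 1 member, Dlx6, was called, and 0 at 2-fold under every scaling and count minimum tried. At 10 TPM, 4 members and 59 of the 168 distinct list genes passed, against 96 of these genes at 1 TPM. Spike-in scaling called 534 genes, against 192 by TMM. It shifts every gene by -0.55 on the log2 scale, up to the prior count. By that shift the median log2 ratios became -0.48 for eminence factors, -0.24 for GABA genes and -0.53 for partners. Those of homeobox genes and epidermis markers became -0.54 and -0.33. The cause of the shift was not tested. Of 35 alternatives of the member ratios, 30 stayed inside the counting interval, and the other 5 were spike-in scaling. Leaving out a replicate leaves 1 library and no spread. No paired analysis was possible because the series holds 1 group. Depth limits Dlx3 and Dlx4, at 1 to 9 counts.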
